A study of Mus musculus with 5 samples.

Results

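The 10 genes Fos, Fosb, Fosl1, Jun, Junb, Jund, Egr1, Atf3, Ier2 and Ier3 are immediate early genes, most of them coding for subunits or partners of the transcription factor AP-1. They were chosen by name, and all 10 were found among the 12579 genes that both deposited tables hold. Their RNA was followed through 5 libraries of dissociated mouse pancreatic tumours, in which 16363 of 17771 cell barcodes were used. KPPC tumours (3 libraries, coded C3, D3 and H2) lose both copies of Trp53 through Cre, and KPPCN tumours (2 libraries) lose Nsdhl, an enzyme of cholesterol synthesis, in addition. In both groups Cre is driven by the Pdx1 promoter, so the alleles are changed in pancreatic epithelium and its descendants and not in the stroma. The mice had advanced tumours at 7 to 8 weeks of age, and the cells of all libraries were released with a tumour dissociation kit, cleared of dead cells and depleted of CD45+ blood cells. The protocol in the labels gives 3 mice per genotype and does not tie the KPPC codes to them, so each code was taken as 1 library, and p-values measure the spread between these libraries.

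AP-1 is a dimer of a FOS family protein (FOS, FOSB, FRA-1 from Fosl1, FRA-2 from Fosl2) with a JUN family protein (JUN, JUNB, JUND), or of either with an ATF protein such as ATF3. Fos, Fosb, Jun, Egr1 and Ier2 are transcribed within minutes of a growth signal or of stress, through factors already present in the cell, and enzymatic dissociation of tissue is a known trigger. Fosl1 responds more slowly, and FRA-1 is stabilised by the MAP kinase ERK. In pancreatic cancer FRA-1 is known for its link to mesenchymal, invasive states.

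Fosb and Jun were the members whose RNA followed that of Fos most closely. The upstream sequences of these 3 genes are shown because control regions of this kind connect the signal to the gene. Each is the 250 bases before the RefSeq transcription start in build GRCm38.p6, on the gene's own strand, 5′ to 3′. They are chr12:85473640-85473889 (plus strand) for Fos, chr7:19310046-19310295 (minus strand) for Fosb and chr4:95052223-95052472 (minus strand) for Jun. Capitals mark TGACG, the core of the cyclic AMP response element, TGACATCA, an AP-1-like site, and TATAAA, the TATA box.
Fos: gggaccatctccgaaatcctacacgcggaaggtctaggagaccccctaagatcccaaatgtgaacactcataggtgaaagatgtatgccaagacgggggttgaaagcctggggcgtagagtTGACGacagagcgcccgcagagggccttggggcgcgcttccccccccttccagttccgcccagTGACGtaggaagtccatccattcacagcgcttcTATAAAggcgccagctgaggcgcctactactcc
Fosb: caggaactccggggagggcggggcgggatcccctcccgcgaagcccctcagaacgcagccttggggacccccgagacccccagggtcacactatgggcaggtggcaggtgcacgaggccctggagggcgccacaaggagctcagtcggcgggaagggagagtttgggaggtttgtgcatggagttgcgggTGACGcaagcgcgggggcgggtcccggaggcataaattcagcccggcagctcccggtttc
Jun: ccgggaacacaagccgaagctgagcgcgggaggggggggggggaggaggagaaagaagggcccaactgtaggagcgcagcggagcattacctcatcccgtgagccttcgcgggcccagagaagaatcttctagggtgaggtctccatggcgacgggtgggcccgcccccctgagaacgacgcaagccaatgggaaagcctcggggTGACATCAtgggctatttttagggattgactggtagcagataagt
Promoter sequences were matched for 7 of the 10 members, not for Fosl1, Egr1 and Ier2, and each motif was searched on both strands. In Fos, TGACG begins 129 and 66 bases before the start and TATAAA 33 bases before it, TGACG begins 60 bases before the Fosb start, and TGACATCA begins 45 bases before the Jun start. TGACG was found in 4 of the 7 members (Fos, Fosb, Junb and Atf3) and in 17.8% of all 32851 promoters of the same length. TGACATCA was found in 2.93% of all promoters and TATAAA in 12.4%. The AP-1 site TGACTCA was found in none of the 7 windows and in 4.46% of all, the full element TGACGTCA in none and in 1.55%, and the CArG box, bound by the serum response factor, in none and in 1.47%. Any TGACGTCA also counts as a TGACG. Such matches describe letters in these windows only, and sites further upstream were not searched.

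Levels are given as CPM, the unique molecular identifiers (UMIs, 1 per captured RNA molecule) of a gene per 1000000 UMIs in the sum of a library's cells of 1 population. Total UMIs ran from 25739799 to 77088231 per library, and the median UMIs per cell were 17204 to 21711.5 in 4 libraries and 2191 in KPPCN 1. The library KPPCN 1 stands apart in 2 ways: that depth, and 1268 T/NK-like cells and 1003 B/plasma-like ones, while no other library held more than 42 and 9 of these, although the protocol depletes blood cells. Between 0 and 6 barcodes were shared by any pair of libraries. Nsdhl was at 15.2, 18.3 and 16.8 CPM over all cells of the KPPC libraries and at 14.0 and 11.6 CPM in the KPPCN libraries. A 3′ tag does not show whether the deleted part of that gene is present, so Nsdhl checks no label.

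Populations were clusters made without the members and without the heat shock, ERK and other immediate early genes described below, so the members did not define them. Epithelial-like cells (516, 811 and 593 in KPPC, 50 and 27 in KPPCN) held Epcam at 692 to 1858 CPM and Krt19 at 2105 to 3178 CPM. Fibroblast-like cells (1377, 305 and 556 against 1490 and 244) held Col1a1 at 9248 to 13033 CPM. Their sub-clusters differed between libraries: cluster 2 gave 1259 of the 1490 such cells in KPPCN 1 and at most 9 in any other library. A further population matched no marker list and is called Cdkn2a Hmga2 cells after 2 of its leading genes (213, 107 and 53 against 238 and 1125 cells). It was drawn up from 4 clusters after these had been seen. It held the cell cycle inhibitor gene Cdkn2a at 1016 to 1163 CPM and the mesenchymal gene Vim at 3372 to 5593 CPM, with Epcam at 1.5 to 92.2 CPM and Col1a1 at 67.2 to 488 CPM. Its cells lay mostly in cluster 11 in KPPC and KPPCN 1 and in clusters 7 and 20 in KPPCN 2. The keratin gene Krt18 was at 2328, 3188 and 2362 CPM in KPPC, 3287 CPM in KPPCN 1 and only 535 CPM in KPPCN 2. The population is therefore not uniform over libraries, and its genotype comparison also sets different clusters against each other.

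Fos, the rapid partner of JUN, was lowest in the Cdkn2a Hmga2 cells in 4 of the 5 libraries among the 3 populations tested. There it reached 857 CPM in C3, 1333 CPM in D3, 837 CPM in H2, 679 CPM in KPPCN 1 and 1087 CPM in KPPCN 2. In epithelial-like cells it reached 1434, 1559 and 797 CPM in KPPC and 860 and 1371 CPM in KPPCN. Fibroblast-like cells held more in each library, at 2165, 2382 and 1104 CPM in KPPC and 1203 and 1766 CPM in KPPCN. Mesothelial-like cells, the lining of the abdominal cavity, held 2944, 2628 and 1868 CPM and 970 and 2194 CPM. KPPC H2 and KPPCN 1 were low in each of these populations, which the plot of levels by library shows beside the order of the populations.

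**Figure D1:**
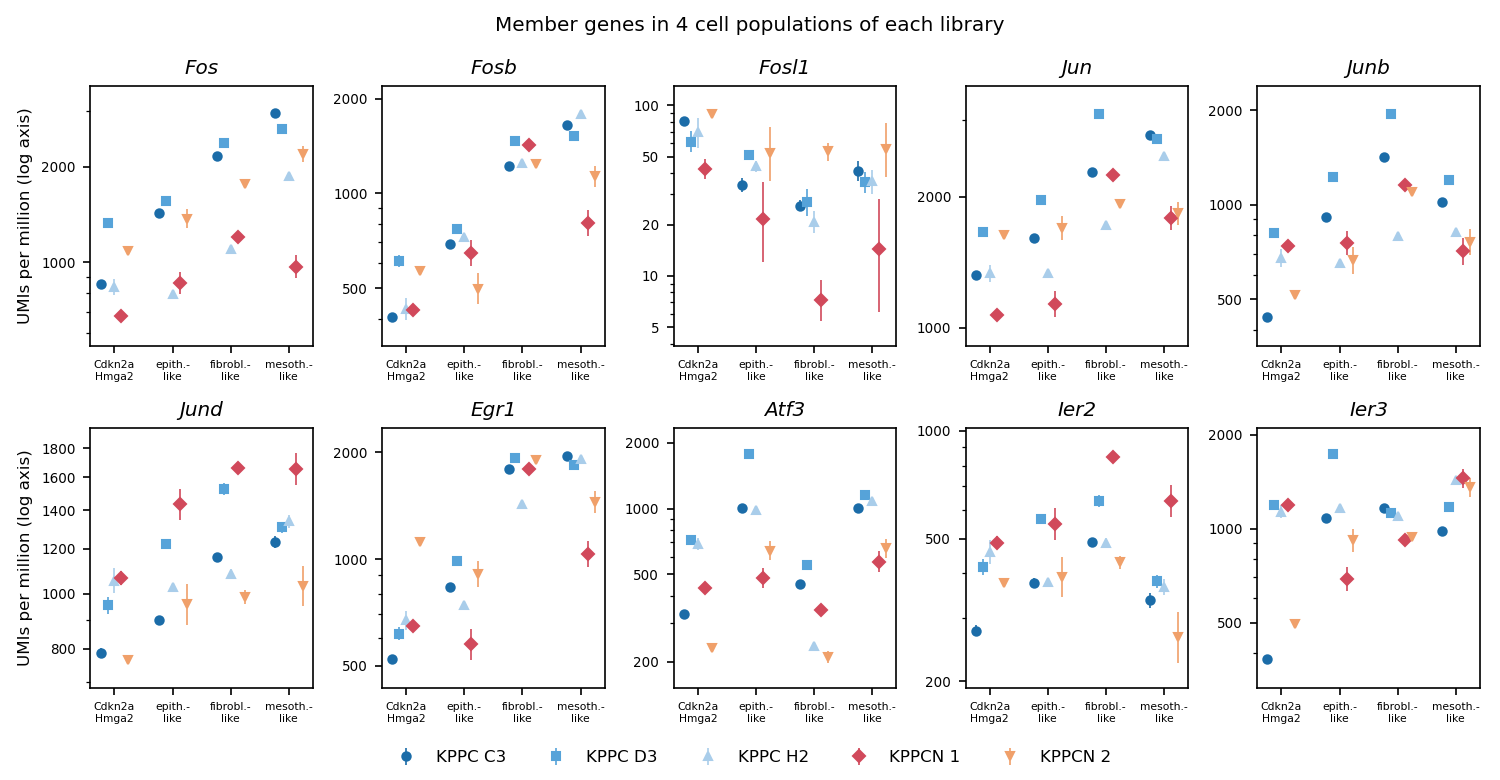
Level of each member gene (CPM, log axis) in 4 cell populations; each point is 1 library, with its exact 95% Poisson interval for counting error, blue for KPPC and red or orange for KPPCN. Fos, Fosb, Jun and Egr1 sit highest in fibroblast-like or mesothelial-like cells, while Fosl1 is highest in the Cdkn2a Hmga2 cells of each library.

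Among the populations plotted, Fosl1 was highest in the Cdkn2a Hmga2 cells, while the few neutrophil-like cells described below held more in KPPC C3 and D3. Its level in the Cdkn2a Hmga2 cells was 80.5 CPM in C3, 61.3 CPM in D3, 69.3 CPM in H2, 42.4 CPM in KPPCN 1 and 89.3 CPM in KPPCN 2. Epithelial-like cells held 34.1, 50.8 and 43.9 CPM in KPPC and 21.6 and 52.8 CPM in KPPCN. Fibroblast-like cells held 25.8, 26.9 and 20.8 CPM in KPPC, but 7.25 CPM in KPPCN 1 and 53.6 CPM in KPPCN 2. Mesothelial-like cells held 41.3, 35.4 and 35.7 CPM and 14.3 and 55.6 CPM, more than the fibroblast-like cells in each library. The Cdkn2a Hmga2 cells were above these 3 populations in all 5 libraries, whereas the ranges over libraries overlap. In KPPC D3 that order depends on the 20 cells of a cycling sub-cluster described below, at 109 CPM. The 81 cells of cluster 11 in that library held 44.7 CPM (counting interval 36.6 to 54.1), beside 50.8 CPM in its epithelial-like cells. Fosl1 lies on chromosome 19 at 5447547 to 5455946 (GRCm38, plus strand), on another chromosome than Fos (12), Fosb (7) and Jun (4).

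Populations in which Fosl1 RNA was scarce are given as a low reference. Free RNA in the droplets was not estimated, and its part in the levels below was not tested. Endothelial-like cells held 4.71, 2.12 and 1.17 CPM in KPPC, from 11, 4 and 3 UMIs, and 14.4 CPM (6 UMIs, 35 cells) in KPPCN 2. B/plasma-like cells of KPPCN 1 held 4.77 CPM and T/NK-like cells of that library 2.00 CPM, beside 7.25 CPM in its fibroblast-like cells. Pericyte or smooth muscle-like cells of KPPC C3 and H2 had no Fosl1 UMI, which allows up to 5.02 and 11.2 CPM. In fibroblast-like cells Fosl1 stood at 17.1% to 60.0% of its level in the Cdkn2a Hmga2 cells of the same library, while Cdkn2a stood at 2.22% to 8.76% and Hmga2 at 0.489% to 4.90%. In endothelial-like cells these shares were 1.69% to 16.1% for Fosl1, 0.462% to 3.78% for Cdkn2a and 0.695% to 6.61% for Hmga2. The share of Fosl1 exceeded those of both genes in each of these populations and libraries. Both genes were required among the leading genes of the Cdkn2a Hmga2 cells, so their low shares elsewhere follow from that choice. The comparison therefore does not test the part of free RNA, and in endothelial-like cells it rests on 3 to 11 Fosl1 UMIs. Neutrophil-like cells were a further place of Fosl1 RNA, at 170 CPM (16 UMIs in 37 cells) and 186 CPM (7 UMIs in 21 cells) in KPPC C3 and D3 and at 26.2 CPM (1 UMI in 29 cells) in KPPC H2. Their exact 95% Poisson intervals, which cover counting error only, run from 97.0 to 276, from 74.6 to 382 and from 0.664 to 146 CPM.

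The first comparison asked how the members differ between Cdkn2a Hmga2 cells and fibroblast-like cells within a library, with the library as a block (limma, all 12044 genes that passed the count filter). 1 of the 10 members was higher and 7 were lower in the Cdkn2a Hmga2 cells, where 28.1% of all genes were called higher and 28.4% lower (56.5% in either direction) at a false discovery rate of 0.05. 55% of all genes had the same sign in every library. Differences are on the log2(CPM + 5) scale with totals scaled by TMM, whereas the CPM printed are unscaled. That log scale understates the differences of low genes. Fosl1 was the member that was higher, by 1.16 (SE 0.20, limma adjusted p = 0.00162) and in 5 of 5 libraries. Library by library its difference was 1.37 in C3, 0.93 in D3, 1.21 in H2, 1.90 in KPPCN 1 and 0.46 in KPPCN 2, the smallest being in KPPCN 2, whose fibroblast-like cells held the most Fosl1. It was 0.86 (limma adjusted p = 0.00983) when the cycling sub-clusters described below were left out.

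The other FOS genes were lower. Fos fell by 1.0 (SE 0.13, limma adjusted p = 0.000377) and Fosb, a close relative with the same JUN partners, by 1.63 (SE 0.12), both in 5 of 5 libraries. Fosb was at 406, 610 and 428 CPM in the Cdkn2a Hmga2 cells of KPPC and 425 and 566 CPM in KPPCN, against 1225, 1469 and 1247 CPM and 1423 and 1239 CPM in fibroblast-like cells. The 2 populations did not overlap for Fosb. The JUN genes, which supply the other subunit, were lower in 5 of 5 libraries: Junb, often a brake on JUN, by 1.16 (SE 0.19), Jun by 0.85 (SE 0.12) and Jund, the most constant of the family, by 0.64 (SE 0.10). Their limma adjusted p-values were 0.00132, 0.000767 and 0.00136.

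Egr1, a zinc finger factor induced with Fos by ERK and SRF, fell by 1.53 (SE 0.14, limma adjusted p = 8.8e-05). It stood at 524, 617 and 672 CPM in the Cdkn2a Hmga2 cells of KPPC and 650 and 1115 CPM in KPPCN, against 1797, 1932 and 1429 CPM and 1794 and 1910 CPM in fibroblast-like cells. Ier2, a small nuclear protein, fell by 0.68 (SE 0.12). Ier3, which promotes survival under stress, did not pass the test (-0.59, SE 0.29, limma adjusted p = 0.114). Its level in the Cdkn2a Hmga2 cells ran from 384 CPM in KPPC C3 to 1196 CPM in KPPCN 1, against 918 to 1168 CPM in fibroblast-like cells. With finer clusters Ier3 passed in this comparison (-0.78, limma adjusted p = 0.0480). Atf3, a stress-induced repressor that pairs with JUN, did not pass either (0.19, SE 0.22, limma adjusted p = 0.482), with the sign differing between libraries (-0.56, 0.22 and 1.17 in KPPC, 0.28 and -0.11 in KPPCN).

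**Figure D2:**
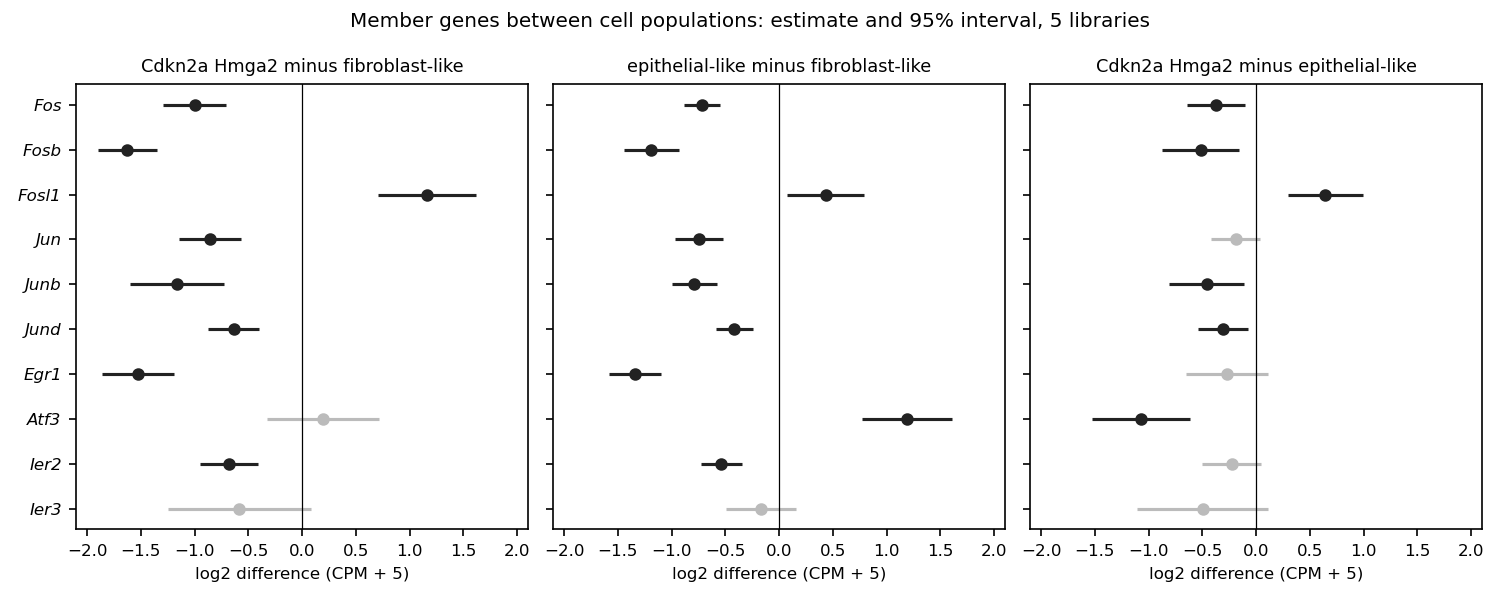
Difference of each member between 2 populations of the same library (log2 of CPM + 5, first named minus second; point, limma estimate; bar, 95% interval; 5 libraries; black, adjusted p under 0.05; grey, not past it). Fosl1 lies to the right of 0 in all 3 comparisons, at 1.16, 0.43 and 0.64, and Fos to the left, at -1.0, -0.72 and -0.37.

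Epithelial-like cells differed from fibroblast-like cells in much the same members, a comparison that shares its fibroblast-like cells with the first. Of the 10 members 2 were higher and 7 lower, where 31.1% of 12419 genes were called higher and 32.6% lower (63.7% in either direction) and 57.9% had the same sign in every library. Egr1 fell by 1.34 (SE 0.10), Fosb by 1.19 (SE 0.11), Junb by 0.79 (SE 0.09), Jun by 0.75 (SE 0.10), Fos by 0.72 (SE 0.07), Ier2 by 0.54 (SE 0.08) and Jund by 0.42 (SE 0.07), each in 5 of 5 libraries. The largest limma adjusted p of these was 0.00136. Ier3 did not pass (-0.17, limma adjusted p = 0.319), but did without KPPC D3 (-0.31, 0.0250). Atf3 was higher by 1.19 (SE 0.18, limma adjusted p = 0.000533), at 1001, 1772 and 985 CPM in epithelial-like cells of KPPC and 482 and 642 CPM in KPPCN against 451, 555 and 236 CPM and 344 and 211 CPM in fibroblast-like cells. Fosl1 was higher by 0.43 (SE 0.16, limma adjusted p = 0.0391) in 4 of 5 libraries, the exception being KPPCN 2 at -0.36 on scaled totals. Its unscaled levels there were nearly equal, 52.8 CPM (32 UMIs in 27 cells) in epithelial-like and 53.6 CPM in fibroblast-like cells. In KPPCN 1 the epithelial-like level came from 15 UMIs in 50 cells. That call was lost without KPPC D3 (0.36, limma adjusted p = 0.116), without KPPC H2 (0.38, 0.112), without KPPCN 1 (0.40, 0.0582), with finer clusters (0.29, 0.228), without precision weights (0.45, 0.0723) and without the library block (0.54, 0.202).

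Between the Cdkn2a Hmga2 cells and the epithelial-like cells 1 member was higher and 5 were lower, where 17.8% of 12168 genes were called higher and 19.1% lower (36.9% in either direction) and 41.2% had the same sign in every library. Fosl1 was higher by 0.64 (SE 0.15, limma adjusted p = 0.0110) in 5 of 5 libraries, by 1.12 in C3, 0.19 in D3, 0.45 in H2, 0.79 in KPPCN 1 and 0.70 in KPPCN 2. The call was lost without KPPC C3 (0.47, limma adjusted p = 0.0526), without the cycling sub-clusters (0.37, 0.125) and with each cell thinned to 1000 UMIs (0.29, 0.681). Atf3 was lower by 1.07 (SE 0.20, limma adjusted p = 0.00330), at 330, 716 and 691 CPM in the Cdkn2a Hmga2 cells of KPPC and 432 and 232 CPM in KPPCN, and kept its call in each alternative run. Fosb (-0.52), Junb (-0.46), Fos (-0.37) and Jund (-0.31) were lower with limma adjusted p-values of 0.0307, 0.0442, 0.0367 and 0.0438. These calls were not stable: of 17 alternatives Fosb lost its call in 5, Fos and Junb in 10 each and Jund in 11. All 4 lost it without the cycling sub-clusters, without KPPC C3 and without KPPC D3, Fosb and Jund also without KPPC H2, Fos, Fosb and Jund without KPPCN 1, and Fos, Junb and Jund without KPPCN 2. Jun (-0.19), Ier2 (-0.23), Egr1 (-0.27) and Ier3 (-0.50) did not pass, but Ier3 did without KPPCN 1 (-0.79, limma adjusted p = 0.0235).

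Within the Cdkn2a Hmga2 cells, Fosl1 was at a higher level in the cycling sub-clusters. In the Cdkn2a Hmga2 cells, 2 of the 4 sub-clusters held Mki67, a proliferation marker, at 86.1 and 133 CPM and the other two at 3.37 and 4.92 CPM. These were compared after the values had been seen, within the 4 libraries that have at least 20 cycling cells, and without a test. Fosl1 was at 126 CPM in cycling against 68.7 CPM in the other cells of KPPC C3 and at 109 against 44.7 CPM in KPPC D3. In KPPCN 1 and 2 it was at 78.0 against 31.6 CPM and at 130 against 65.3 CPM, so the ratio lay between 1.83 and 2.47 in the 4 libraries. The other 9 members were at a lower level in the cycling cells of all 4 libraries. Fos was at 630 against 922, 862 against 1568, 120 against 833 and 730 against 1306 CPM, and its ratio had a median of 0.554. Hmga2, which marks the population, had ratios of 1.13 to 1.57, and Cdkn2a of 0.589 to 0.852. The cycling cells numbered 38, 20, 21 and 323 in KPPC C3, D3, KPPCN 1 and 2. Their median UMIs were 61322.5, 40901, 37793 and 37360, against 55183, 26180, 11799 and 27714 in the other cells. The part of depth was not tested, the share of all genes lower in cycling cells was not computed, and cycling cells of other populations were not compared.

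The cells of 1 sub-cluster in 1 library were next ordered by Fos, Fosb and Egr1 together, in 3 equal bins, and the richest bin was set against the poorest. The members not used for the ordering differed in whether they went along. Jun had ratios of 4.11 to 7.75 in the 5 libraries, Atf3 of 5.52 to 22.5, Ier2 of 4.18 to 6.38, Jund of 2.81 to 4.31, Junb of 2.61 to 4.28 and Ier3 of 1.27 to 3.68. Fosl1 had ratios of 0.963 and 1.06 in KPPC C3 and D3 and 1.12 and 1.01 in KPPCN 1 and 2. In KPPC H2 the ratio was 21.7, from 29 against 1 UMI in 15 cells each, with an exact 95% interval for counting error of 3.59 to 885. The intervals of the 4 other libraries all included 1 and ended at 1.18, 1.74, 1.77 and 1.14. In those 4 libraries the cells richest and poorest in Fos, Fosb and Egr1 did not differ in Fosl1 beyond counting error. Median UMIs per cell in the poorest and the richest cells were 39991.5 and 57911 in KPPC C3 and 12949 and 11041 in KPPCN 1, and the part of depth in these ratios was not tested.

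**Figure D3:**
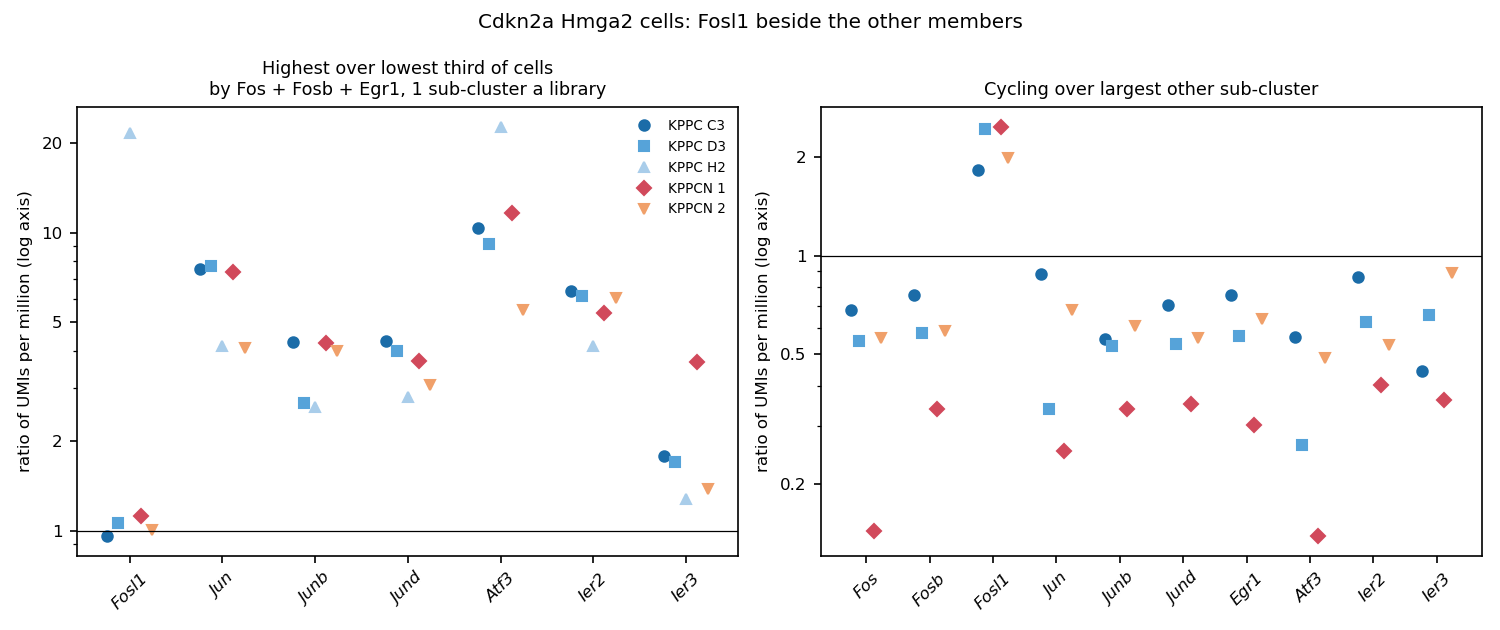
Cdkn2a Hmga2 cells; each point is 1 library and the vertical axes are ratios of CPM on a log scale, with a line at 1. Left, the richest over the poorest of 3 equal bins of cells by Fos, Fosb and Egr1 within the largest sub-cluster, where Fosl1 lies at 0.963 to 1.12 in 4 libraries and at 21.7 in KPPC H2; right, cycling over the largest other sub-cluster in 4 libraries, where Fosl1 lies at 1.83 to 2.47 and the other members below 1.

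The same ordering over whole populations gave Fosl1 a median ratio of 0.809 in the Cdkn2a Hmga2 cells (above 1 in 1 of 5 libraries), 3.22 in epithelial-like cells (4 of 5) and 1.35 in fibroblast-like cells (4 of 5). Jun had medians of 6.89, 8.30 and 3.29 in the same populations and Atf3 of 14.0, 15.4 and 4.74, above 1 in 5 of 5 libraries each time. The 27 other immediate early genes, summed, had medians of 4.10, 3.62 and 3.23. The 12 heat shock genes, summed, had medians of 0.982 (above 1 in 1 of 5 libraries), 1.06 (5 of 5) and 1.20 (5 of 5), and ran up to 1.31 in fibroblast-like cells. Those sums are led by the abundant chaperones and do not show the inducible ones apart.

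Across all 71 sums of a library and a population (at least 20 cells each), the genes with the most similar pattern to Fos were Fosb (Pearson r = 0.92), Jun (0.91), Egr1 (0.87), Klf4 (0.85) and Dusp1 (0.83), among 8395 genes. For Fosl1 they were Cd44 (0.67), Lgals3 (0.66), Sqstm1 (0.64), Egln3 (0.62) and Sox9 (0.59). Cd44 is a hyaluronan receptor, Lgals3 codes for galectin-3, Sqstm1 for the autophagy receptor p62, Egln3 for an oxygen sensor and Sox9 for a ductal transcription factor. Fosl1 and Fos had r = 0.13, and the highest r of Fosl1 with another member was 0.56, with Ier3. These correlations are descriptions over sums that share libraries and depth. The leading genes of Fosl1 depend on the sums used: over the 51 sums of at least 50 cells Sox9 led (0.85), and without KPPCN 1 Ptk2b led (0.76), Cd44 being the one gene among the 5 leading in all 3 versions.

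The genes around the members were described by lists, whose counts stand beside 28.1% of all genes called higher and 28.4% lower in Cdkn2a Hmga2 against fibroblast-like cells, 31.1% and 32.6% in epithelial-like against fibroblast-like cells, and 17.8% and 19.1% in Cdkn2a Hmga2 against epithelial-like cells. Of the 27 other immediate early genes, 2 were higher and 23 lower in the Cdkn2a Hmga2 cells than in fibroblast-like cells, with a median of -1.62 against 0.01 for all genes. Dusp1, a phosphatase that switches off MAP kinases, fell by 2.24, from 749 to 1864 CPM in fibroblast-like cells to 239 to 385 CPM. Klf4, a zinc finger factor, fell by 1.95, and Nfkbia, the NF-kappa-B inhibitor, fell by 1.42. Klf10 (0.97) and Rhob (0.52) were the 2 that were higher, and Klf6, the most abundant of the list in the Cdkn2a Hmga2 cells, did not pass (0.43, limma adjusted p = 0.0569). In epithelial-like against fibroblast-like cells 2 of the 27 were higher and 22 lower (median -1.49), and in Cdkn2a Hmga2 against epithelial-like cells 5 were higher (Egr2, Egr3, Klf2, Myc and Cebpd) and 8 lower (median -0.13).

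Heat shock genes split. In Cdkn2a Hmga2 against fibroblast-like cells 7 of 12 were higher and 5 lower, with a median of 0.35. The constitutive chaperone genes Hsp90ab1 (1.16) and Hspa8 (0.52) were higher, as was Hsp90aa1 (1.07), the stress-inducible HSP90 gene. The 5 that were lower were Dnajb1 (-1.65), Hspa1b (-1.48), Hspb1 (-1.37), Hspa1a (-1.34) and Dnajb4 (-1.0). Hspa1a, the main stress-inducible chaperone, was at 141, 98.8 and 94.3 CPM in the Cdkn2a Hmga2 cells of KPPC and 195 and 175 CPM in KPPCN. Its level in fibroblast-like cells was 276, 448 and 210 CPM and 370 and 309 CPM, so the populations did not overlap. Against epithelial-like cells 3 of 12 were higher and 3 lower, the lower ones being Hspa1b (-1.30), Hspa1a (-1.13) and Dnajb1 (-0.63). Dissociation acts on all populations of a library, and its part in the differences between them was not tested.

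Among ERK feedback and output genes 9 of 14 were higher and 1 lower in Cdkn2a Hmga2 than in fibroblast-like cells, with a median of 1.07. Ccnd1, the cyclin that drives entry into S phase, was higher by 4.30, at 550 to 1012 CPM against 24.5 to 32.4 CPM, and Dusp5, an ERK phosphatase, by 2.39. Phlda1 did not pass (-0.20), and Spry1 was the gene that was lower (-1.45). Against epithelial-like cells 8 of 14 were higher and 2 lower (median 0.52), the lower ones being Phlda1 (-1.42) and Spry1 (-0.70), and Ccnd1 higher by 1.02. Epithelial-like against fibroblast-like cells gave 9 higher and 2 lower (median 0.85).

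Of 19 MAP kinase and SRF inputs 5 were higher and 5 lower in Cdkn2a Hmga2 than in fibroblast-like cells (median 0.17), shares close to those of all genes. Nras was higher by 1.03, while Map2k2 did not pass (0.21). The 5 that were lower included Srf, the factor that binds the CArG box. Of 14 genes described as FRA-1 or AP-1 targets 7 were higher and 3 lower (Timp1, Mmp14 and Mmp3), with a median of 0.27. Hbegf, a ligand of the EGF receptor, was higher by 4.08 and Cd44 by 2.03, whereas Timp1, an inhibitor of matrix proteases, was lower by 1.05 at 813 to 2094 CPM against 1836 to 4338 CPM. The lists of this paragraph were not left out of the clustering, so their genes could help to define the populations. Hbegf was itself among the 10 leading genes of clusters 11 and 20, which belong to the Cdkn2a Hmga2 cells. Of 9 other AP-1 and bZIP partners 1 was higher (Mafg, 0.64) and 5 lower, among them Maf (-1.84) and Fosl2 (-1.68), and Atf4 did not pass (-0.20). Fosl2, the nearest relative of Fosl1, was thus on the other side, at 24.3 to 71.9 CPM in Cdkn2a Hmga2 cells and 111 to 136 CPM in fibroblast-like cells.

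Part of the Fos level belonged to the library and not to the population. KPPC H2 and KPPCN 1 were the 2 lowest libraries for Fos in 6 of the 6 populations that have at least 20 cells in each library. Over these 30 sums, library means accounted for 45.5% of the variance of Fos, 56.6% of Ier2 and 40.0% of Junb, against a median of 9.82% over 5616 genes. For Fosb the library share was 4.14% and for Fosl1 11.9%, with 80.9% and 69.4% going to the population. The median population share over the same genes was 71.8%, so Fosl1 was close to a typical gene in this respect. Fos in KPPC H2 stood at 0.486 to 0.764 of the mean of C3 and D3 over the 6 populations, and Fosb, its nearest companion in pattern, at 0.844 to 1.13. Ier2 ran the other way from Fos in KPPCN: its level in KPPCN 1 had a median of 1.80 times that in KPPCN 2, while the median was 0.630 for Fos and 0.442 for Fosl1. Ier2 was highest in KPPCN 1 in 5 of the 6 populations. KPPCN 1 is also the shallow library, and the part of its depth or handling in these ratios was not tested.

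**Figure D4:**
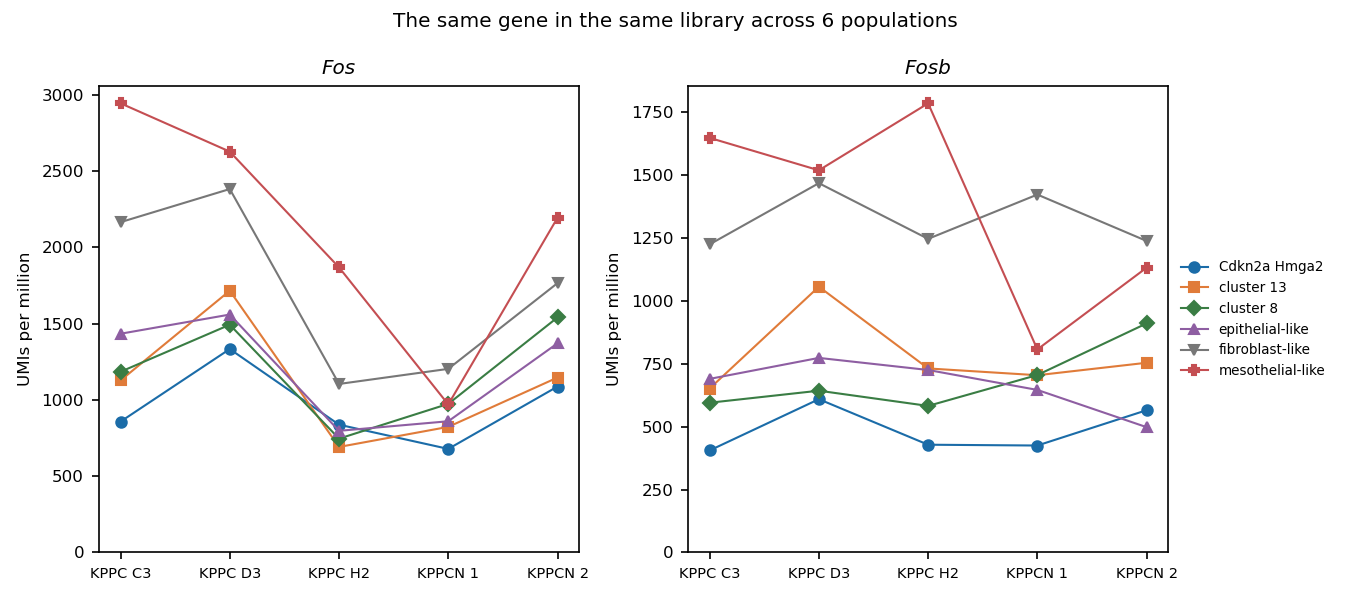
Level of Fos (left) and Fosb (right) in CPM for each of the 5 libraries (horizontal axis) in the 6 populations with at least 20 cells in every library; lines join the values of 1 population. For Fos KPPC H2 and KPPCN 1 are the 2 lowest points of all 6 lines, H2 the lowest in 4 and KPPCN 1 in 2; KPPC H2 stands at 0.486 to 0.764 of the mean of C3 and D3, while Fosb stands at 0.844 to 1.13 of that mean.

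Loss of Nsdhl on top of the KPPC alleles was compared within 3 populations, KPPCN minus KPPC. The sums compared here do not by themselves separate fewer expressing cells from less RNA per cell. No member passed the test in any of the 3, and limma called 0% of 12078, 11812 and 11334 genes in epithelial-like, fibroblast-like and Cdkn2a Hmga2 cells. At an unadjusted p under 0.05 there were 873, 890 and 787 genes. The members had a median log2 difference of -0.31, -0.22 and -0.06 in these populations, against -0.01, 0.01 and 0.02 for all genes. With 2 libraries of KPPCN, the 95% interval for Fos ran from -0.99 to 0.58 in epithelial-like, -1.21 to 0.52 in fibroblast-like and -0.91 to 0.50 in Cdkn2a Hmga2 cells. For Fosl1 these intervals ran from -1.17 to 0.49, from -1.67 to 1.18 and from -0.93 to 0.59.

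For 3 members of 10 the KPPC and KPPCN libraries did not overlap in epithelial-like cells, as for 33.2% of all genes. In all 3 KPPCN was the lower group, as for 17.9% of all genes, while 15.4% were higher. They were Atf3 (-1.16, SE 0.30, limma adjusted p = 0.679), Ier3 (-0.75, SE 0.24) and Fosb (-0.40, SE 0.18). Ier3 was at 1086, 1730 and 1164 CPM in KPPC and 691 and 921 CPM in KPPCN. In fibroblast-like cells the groups were apart for 1 member, Ier3 (-0.33, SE 0.17), and for 25.9% of all genes, 13.3% with KPPCN lower and 12.7% with KPPCN higher. In Cdkn2a Hmga2 cells they were apart for 1 member, Egr1, higher in KPPCN once totals were scaled (0.49, SE 0.25, limma adjusted p = 0.748), and for 21.4% of all genes, 11.9% with KPPCN higher and 9.57% with KPPCN lower.

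The 2 KPPCN libraries were on opposite sides of KPPC for Fosl1 in fibroblast-like cells, at 7.25 and 53.6 CPM around 20.8 to 26.9 CPM. Its log2 difference of -0.25 (SE 0.60) was 1.03 without KPPCN 1 and -1.33 without KPPCN 2. In Cdkn2a Hmga2 cells 236 genes were called without KPPCN 1 and none of the members was among them. Of the 27 other immediate early genes 23 had a negative difference in epithelial-like, 25 in fibroblast-like and 19 in Cdkn2a Hmga2 cells, none past the test. Over all genes tested, 6260 of 12078, 5732 of 11812 and 5399 of 11334 differences were negative. The listed genes were not tested as a set, and genes that vary together between libraries are not separate evidence. The heat shock genes had 6 of 12, 6 of 12 and 3 of 12 negative differences.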

How the data were processed

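The deposited tables give each cell's expression as the natural log of 1 plus UMIs per 10000, made by the authors. Per the submitters' processing notes, build GRCm38 and the tools Seurat 3.0.2, Cell Ranger 2.1.0 and R 3.5.1 were used, with no roles given, and filters on cells are not given in the sources used here. UMIs were recovered from these values (100% whole within 0.01) and summed by library and population. Cells under 500 genes (901 left out, 832 of them in KPPCN 1) and the 507 with the highest doublet scores (3.005%) were removed. A doublet caller alone marked 39 cells (0.231%), too few to rely on. Cells were clustered with scanpy 1.11.5 and leidenalg 0.10.2 from 2000 variable genes, 30 components and 20 neighbours, without 63 listed genes. Classes were named from marker lists.

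limma 3.58.1 (R 4.3.3) was fitted to log2(CPM + 5) over all genes with at least 15 UMIs over the sums and 10 at the median total, with TMM scaling, precision weights and, between populations, the library as a block. P-values were adjusted by Benjamini-Hochberg over all genes tested. The planned count model was replaced by this test because the deposited unit is a log. The scripts were tested on simulated data. 1 item of the genotype and its values are not reported here.

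The members and gene lists were chosen with earlier results of these data known. Genes named from a list are among its 3 with the highest mean CPM in the Cdkn2a Hmga2 cells, or past the threshold in a direction with 5 or fewer. The naming by threshold was not complete, since not every such gene is given. Srf and Fosl2 were chosen after their values were seen. Klf4 and Dusp1 are named as 2 of the 5 genes most alike to Fos. Intervals cover counting error only. The alternatives changed scaling, pseudocount, filter, weights, clusters, depth and the libraries used.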

Additional observations from a re-analysis of the deposited data

Results flagged for a closer look

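The Egr1 difference between Cdkn2a Hmga2 and epithelial-like cells had opposite signs in the genotypes. It was -0.68, -0.74 and -0.31 (log2) in KPPC C3, D3 and H2, and 0.13 and 0.29 in KPPCN 1 and 2. The means differed by 0.78 (KPPCN minus KPPC), with an interaction p of 0.0129 and an adjusted p of 0.476 by limma over 12168 genes. No gene passed in that interaction.

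On TMM-scaled totals, Fos in epithelial-like against fibroblast-like cells had 1 library apart from the rest. KPPCN 1 was at -0.60, with the other libraries between -0.76 and -0.73. In unscaled CPM the ratio of KPPCN 1 lay within the range of the others, at 860 against 1203 CPM. The others held 1434 against 2165, 1559 against 2382 and 797 against 1104 CPM in KPPC and 1371 against 1766 CPM in KPPCN 2. The epithelial-like sum of KPPCN 1 held 50 cells and 596 Fos UMIs. 30 groups of 5 libraries were checked for such a library and 1 was singled out, where chance singles out about 1 in 20.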

How the results depend on the processing

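Across the 17 settings run for each, the higher Fosl1 in Cdkn2a Hmga2 than in fibroblast-like cells stayed past the threshold (limma adjusted p 0.000438 to 0.0135), as did the lower Atf3 in Cdkn2a Hmga2 than in epithelial-like cells. No member was called by genotype in any setting run. Thinning each cell to 1000 UMIs lowered the genes called to 844 (Cdkn2a Hmga2 against epithelial-like), 2188 (against fibroblast-like) and 3690 (epithelial-like against fibroblast-like), and gave 7 genes by genotype in fibroblast-like cells; leaving out the cycling sub-clusters gave 1 in Cdkn2a Hmga2 cells. The causes were not tested.

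Signs turned in genotype differences that pass no test. In epithelial-like cells thinning gave -0.41 for Jund and -0.96 for Ier2, and finer clusters 0.0016 for Fos. In fibroblast-like cells plain totals gave 0.021 for Fosb and 0.045 for Jund, median-of-ratios size factors 0.0065 for Jund, no low-count filter 0.017 for Jund, thinning 0.25 for Fosb and 0.11 for Jund, clusters made with the lists 0.023 for Fosb, 0.014 for Fosl1 and 0.059 for Jund, coarser clusters 0.033 for Fosb and 0.066 for Jund, and finer clusters -0.028 for Egr1. In Cdkn2a Hmga2 cells thinning gave 0.070 for Fos, 0.52 for Fosl1, 0.27 for Junb and 0.23 for Jund, finer clusters 0.17 for Junb, 0.071 for Jund and 0.33 for Ier3, and leaving out the cycling sub-clusters 0.011 for Junb and 0.034 for Jund. Ier3 in epithelial-like against fibroblast-like cells was 0.042 with plain totals, which moved the share of calls that were higher from 48.9% to 60.0%.

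Leaving out 1 library at a time gave 3156 to 4498, 5603 to 6468 and 6812 to 7826 genes in the class comparisons named above, in that order. By genotype it gave 0 to 2 genes in epithelial-like, 0 to 26 in fibroblast-like and 0 to 236 in Cdkn2a Hmga2 cells. Differences ran in epithelial-like cells from -0.50 to 0.077 for Fos, -0.86 to 0.17 for Fosl1, -0.22 to 0.47 for Jund and -0.25 to 0.34 for Ier2. In fibroblast-like cells they ran from -0.67 to 0.019 for Fos, -0.086 to 0.023 for Fosb, -1.33 to 1.03 for Fosl1, -0.29 to 0.32 for Jund, -0.025 to 0.20 for Egr1 and -0.27 to 0.57 for Ier2. In Cdkn2a Hmga2 cells they ran from -0.51 to 0.10 for Fos, -0.13 to 0.22 for Fosb, -0.66 to 0.27 for Fosl1, -0.40 to 0.14 for Jun, -0.31 to 0.28 for Junb, -0.31 to 0.23 for Jund, -0.031 to 0.41 for Ier2 and -0.73 to 0.60 for Ier3. Atf3 in Cdkn2a Hmga2 against fibroblast-like cells ran from -0.043 to 0.39.

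No paired analysis was possible because, for the genotype comparison, the KPPC columns are coded C3, D3, H2 and lack the replicate numbers that the labels use. The comparisons between populations had the library as a block. The genotype comparison rests on 2 KPPCN libraries, of which KPPCN 1 is shallow.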
